A study of Mus musculus with 96 samples.

Results

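Liver macrophages (LMs) from mice labelled RevDKO were compared with LMs from Control mice in the light phase of the day, at zeitgeber time (ZT) 4 and ZT10, where ZT counts the hours after lights on. The comparison takes 12 of the 96 RNA sequencing libraries of the series, 6 RevDKO and 6 Control, with 3 libraries for each genotype and time. They were chosen by genotype, cell type and time as the labels give them, without use of any measured value. All the mice were male C57BL/6J, carried floxed alleles and ate a high fat and sucrose diet (D12492i) for 4 weeks under 12 hours of light and 12 hours of dark, with lights off at ZT12. At 8 weeks of age Control mice received an adeno-associated virus encoding GFP and RevDKO mice one encoding Cre recombinase, both under the hepatocyte promoter TBG, so Nr1d1 and Nr1d2 were to be deleted in hepatocytes and not in the macrophages sequenced here. The study described the libraries as biological replicates. How LMs were separated for bulk sequencing is not stated in the sources used here.

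REV-ERBα and REV-ERBβ, encoded by Nr1d1 and Nr1d2, are heme-binding nuclear receptors that repress transcription by recruiting corepressors to the RORE, the DNA element that the activating ROR receptors also bind. Their best known clock targets include Arntl, Npas2, Clock, Cry1 and Nfil3, and their levels in liver peak in the light phase, so that light-phase libraries look at the hours when they repress most. Macrophages of the liver, the resident Kupffer cells and recruited monocyte-derived cells, have a clock of their own and also receive lipids, metabolites and secreted proteins from the hepatocytes around them.

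Values are RPKTM, reads per kilobase of transcript per 10000000 reads, quantile normalized by the authors, and every difference below is RevDKO minus Control in log2(RPKTM + 1), where adding 1 shrinks the differences of weakly expressed genes. The depth of each library is unknown, since quantile normalization gave every library the same set of values, so precision rests on the spread between libraries. The ribosomal transcript Rn45s took 27.5% of the column sum in each of the 12 libraries. Correlations between pairs of libraries, which are across genes and not across independent replicates, lay from 0.724 to 0.935. The lowest median correlations with the others were 0.773 for the RevDKO library at ZT10 replicate 2 and 0.823 for the RevDKO library at ZT4 replicate 1.

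The label of the cells was checked first. Clec4f, a lectin particular to Kupffer cells among liver cells, measured 2992 to 7571 RPKTM in Control LMs, with a median of 4815, and Adgre1, which encodes the macrophage antigen F4/80, 706 to 1935 with a median of 1198. In the light-phase hepatocyte libraries of the same genotypes, whose table was normalized apart, the 18 Kupffer cell markers summed to 1971 to 3818 RPKTM, against 7289 to 27590 in the LM libraries. Hepatocyte transcripts were present in all the LM libraries too. The 20 hepatocyte markers summed to 72314 to 132207 RPKTM in LM libraries and 629278 to 809336 in hepatocyte libraries, and single markers stood at 7.31% (Cyp2e1) to 21.2% (Hpx) of their hepatocyte level, with a median of 14.1%. Whether these reads came from hepatocytes, from free RNA or from the macrophages was not tested.

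**Figure D1:**
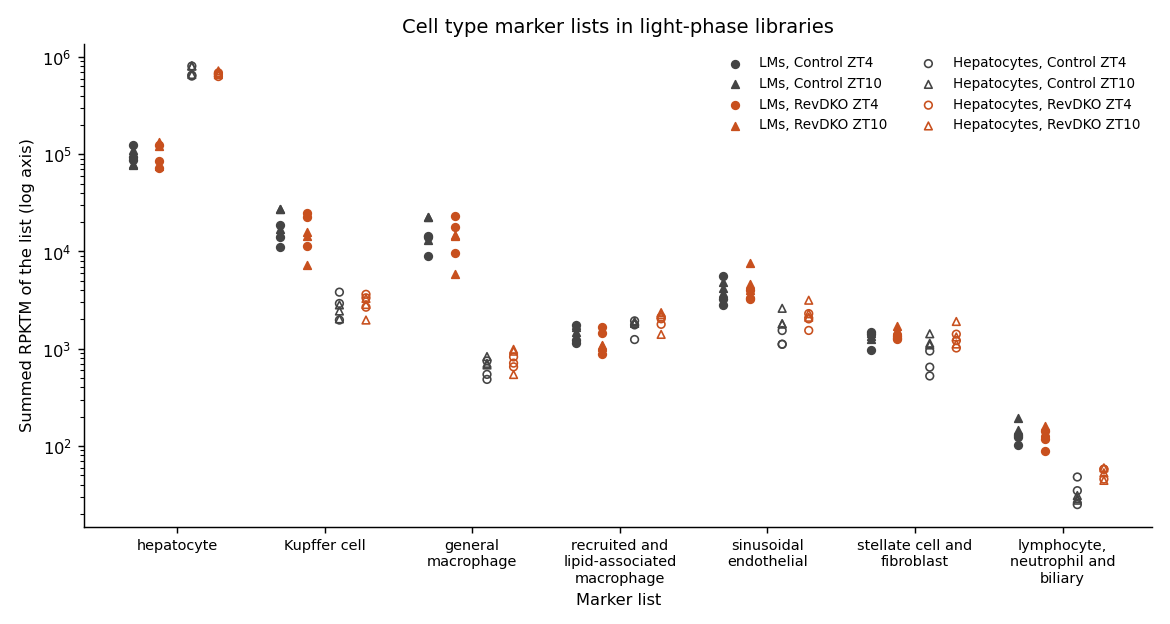
Summed RPKTM (log axis) of each cell type marker list in the 12 light-phase LM libraries (filled) and the 12 light-phase hepatocyte libraries (open) by genotype and time; each point is 1 library. Control and RevDKO LM libraries overlap for all 7 lists, and hepatocyte markers in LM libraries lie from 72314 to 132207 RPKTM, below every hepatocyte library.

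Over both times together, none of the 7 marker sums differed beyond the spread of the libraries. Summed hepatocyte markers had a median of 89984 RPKTM in Control and 102797 in RevDKO LMs, a mean difference of 0.07 log2 units (exact permutation test over the 400 arrangements of genotype within time, 2-sided, p = 0.745, adjusted over the 7 lists 0.745). The 18 Kupffer cell markers differed by -0.31 (p = 0.435, exact test, adjusted 0.706) and the 16 general macrophage markers by -0.21 (p = 0.585, exact test, adjusted 0.706). In Control LMs the Kupffer sum ranged from 11214 to 27590 RPKTM and in RevDKO LMs from 7289 to 24980. Recruited and lipid-associated macrophage markers were the list nearest to a difference, at 1133 to 1765 RPKTM in Control and 892 to 1660 in RevDKO (-0.34, exact p = 0.1, adjusted 0.7). Without the RevDKO library at ZT4 replicate 2 this list gave an exact p of 0.04 before adjustment, and the same p came from averaging log2 values in place of summing. The smallest p this design can give is 0.005.

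By time, a comparison added after seeing the data, macrophage markers went apart. At ZT10 the Kupffer cell sum was 7289 to 15811 RPKTM in RevDKO and 16926 to 27590 in Control, with no overlap (-0.99, exact permutation p = 0.1, the smallest that 3 libraries against 3 allow). At ZT4 it was 11481 to 24980 in RevDKO and 11214 to 18816 in Control (0.37, exact p = 0.4). The change between the times was -1.36 (exact permutation of genotype within time, p = 0.04, adjusted over the 7 lists 0.28). Of the 18 Kupffer cell markers, 17 were lower in RevDKO at ZT10 and 5 at ZT4, against 53.5% and 51.2% of all genes tested. At ZT10 the recruited macrophage sum was also lower in every RevDKO library, at 1031 to 1104 RPKTM against 1477 to 1752 (-0.61, exact p = 0.1), and the stellate cell sum was higher in every one, at 1530 to 1696 against 1248 to 1442 (0.25, exact p = 0.1). The general macrophage sum differed by -0.80 at ZT10 with overlap (exact p = 0.3). Their part in the ZT10 values of the genes below was not tested. In bulk libraries, fewer cells of a type and less RNA per cell cannot be told apart.

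The targeted genes did not fall in LMs, where no deletion was directed. Nr1d1 (NM_145434) measured 18.1 to 155 RPKTM in Control, median 36.3, and 31.1 to 135 in RevDKO, median 69.6, a difference of 0.52 (SE 0.48, limma adjusted p 0.832). Nr1d2 (NM_011584) measured 29.6 to 105 in Control and 25.2 to 106 in RevDKO (-0.32, SE 0.26, limma adjusted p 0.810). The hepatocyte libraries labelled RevDKO also did not show lower values of these genes in the light phase (0.47 for Nr1d1 and 0.21 for Nr1d2, limma adjusted p 0.579 and 0.553), while Arntl was higher there by 3.17 (limma adjusted p 0.00016). Since each value covers a whole transcript, missing exons could not be seen. RevDKO below therefore means the libraries labelled RevDKO, and every direction given rests on that label.

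Few genes differed between RevDKO and Control LMs in the light phase, and most of those that did were higher in RevDKO. The clock gene Npas2 and the lysyl oxidase gene Loxl4 rose most, by 4.21 and 4.04 log2 units, followed by the nuclear receptor gene Ppard at 2.92. The anion transporter gene Slc22a7 and the collagen gene Col27a1 fell most, by 2.99 and 2.01. In limma with time as a covariate, 26 of 12298 genes passed an adjusted p under 0.05, which is 0.211% of the genes tested, 22 of them higher (0.179%) and 4 lower (0.0325%). At an unadjusted p under 0.05 there were 778 genes (6.33%), 427 higher (3.47%) and 351 lower (2.85%). The median difference over all genes was -0.05. In 19 of the 26 genes the 6 RevDKO libraries did not overlap the 6 Control libraries, which 0.407% of all genes tested showed. All 26 had 1 sign at both times, as 48.0% of all genes tested did, and the choice of the 26 on the mean of both times largely fixes this.

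The number of genes rested on single libraries. Omitting Control ZT10 replicate 3 or RevDKO ZT10 replicate 3 lowered it to 8, and omitting RevDKO ZT4 replicate 3 to 9. It was 10 when Control ZT10 replicate 2 was omitted, and 11 when Control ZT10 replicate 1, RevDKO ZT10 replicate 1 or RevDKO ZT10 replicate 2 was. Control ZT4 replicate 1, RevDKO ZT4 replicate 2 and Control ZT4 replicate 2 gave 13, 14 and 17 when omitted. Npas2, Loxl4, Ppard, Cyp2a5, Chka, Chrna4, Ces1d and Col27a1 passed whichever of the 12 libraries was omitted, and the other 18 genes missed the threshold in 6 to 12 of these fits. Cdkn1a lost it in all 12. No gene of the 26 changed direction in these fits or in the 13 other settings tried. With no filter on low values 6 genes passed, all 6 of them among the 26, namely Npas2, Loxl4, Ppard, Cyp2a5, Chka and Ces1d.

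**Figure D2:**
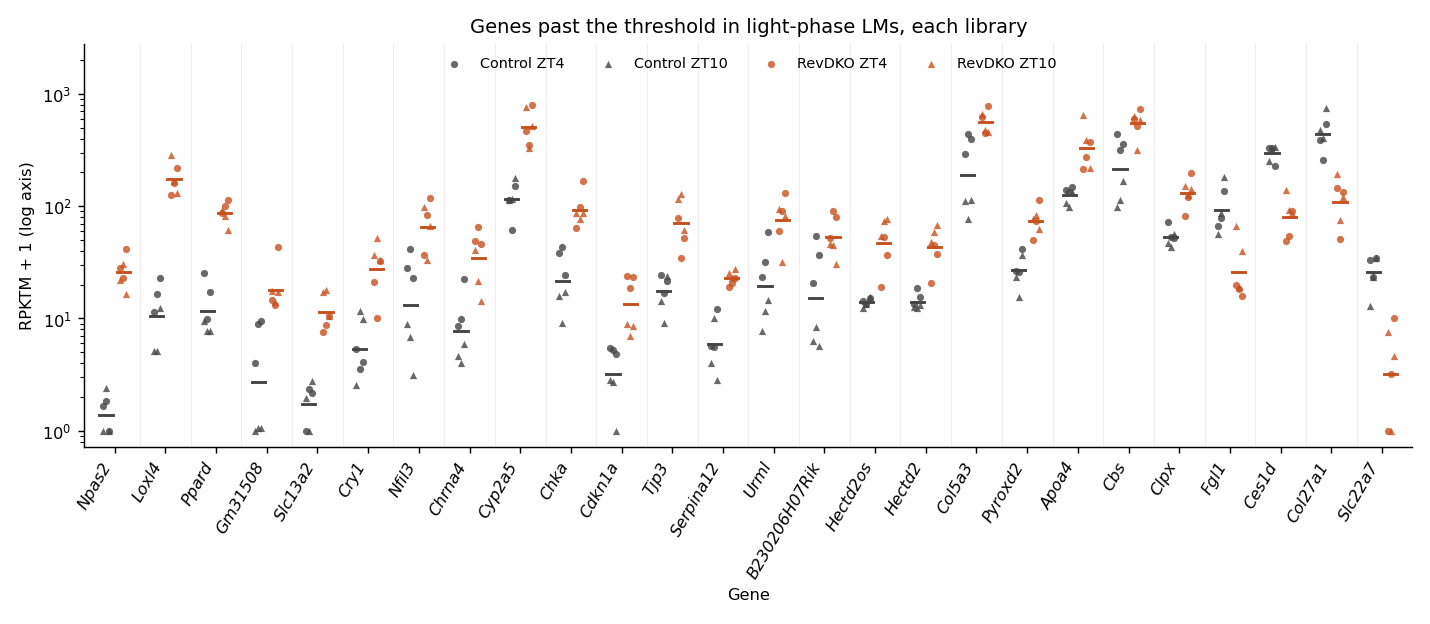
RPKTM + 1 (log axis) of the 26 genes past the threshold in each of the 12 light-phase LM libraries, ordered from the largest rise to the largest fall; points are libraries and bars the means of log2 values over the 6 libraries of a genotype. Npas2 and Loxl4 separate widely (0 to 1.38 against 15.4 to 40.3 RPKTM for Npas2), while Cry1, Nfil3, Chrna4, Urml, B230206H07Rik, Cbs and Fgl1 overlap.

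Among the clock genes that REV-ERBs are known to repress, Npas2, Cry1 and Nfil3 rose, while Arntl and Clock did not pass the threshold. Sequence around the starts of clock genes was read from RefSeq promoters on build GRCm38.p6, 250 bases before to 50 after each start, on both strands, and matches were counted beside those of all 32851 promoters. Of 23 genes looked up, 18 clock genes and those among the 6 largest changes that are not clock genes, 20 had an entry. The RORE was found in 1 of them, Arntl, against 0.384% of all promoters. Its core AGGTCA, found in 16.3% of all promoters, also lay in Clock, Nr1d2, Per1 and Nfil3. The E-box CACGTG, the site of CLOCK and NPAS2 with BMAL1 (7.15% of promoters), lay in Cry1, Per1, Ciart, Bhlhe41 and Tef, and the D-box TTANGTAA, the site of NFIL3 and DBP (2.32%), in Per3. No match was listed for Npas2, Loxl4, Slc22a7, Ppard, Gm31508 or Slc13a2. Which of the 23 genes had no entry is not given here, so a gene of this group may lack a window. Sequence outside these windows was not searched. The sequences of Arntl, Cry1 and Nfil3 are shown because the first holds the full element and the others belong to genes past the threshold. Capitals mark the RORE, which starts 27 bases after the start, in the second Arntl start (chr7:113207261-113207560, plus strand), the E-box in Cry1 (chr10:85185005-85185304, minus strand) and the core on the opposite strand in Nfil3 (chr13:52980990-52981289, minus strand).
Arntl: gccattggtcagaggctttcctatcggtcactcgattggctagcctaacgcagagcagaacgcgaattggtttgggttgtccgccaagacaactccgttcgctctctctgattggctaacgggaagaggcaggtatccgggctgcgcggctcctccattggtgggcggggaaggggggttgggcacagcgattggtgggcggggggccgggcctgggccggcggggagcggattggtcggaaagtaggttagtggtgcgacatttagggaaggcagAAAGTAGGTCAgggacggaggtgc
Cry1: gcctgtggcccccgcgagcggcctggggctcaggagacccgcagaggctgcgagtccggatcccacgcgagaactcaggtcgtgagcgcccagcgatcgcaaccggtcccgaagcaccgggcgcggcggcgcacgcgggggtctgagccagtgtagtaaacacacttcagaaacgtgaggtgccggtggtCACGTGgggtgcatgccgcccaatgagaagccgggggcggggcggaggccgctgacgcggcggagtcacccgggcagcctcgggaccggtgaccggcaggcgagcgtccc
Nfil3: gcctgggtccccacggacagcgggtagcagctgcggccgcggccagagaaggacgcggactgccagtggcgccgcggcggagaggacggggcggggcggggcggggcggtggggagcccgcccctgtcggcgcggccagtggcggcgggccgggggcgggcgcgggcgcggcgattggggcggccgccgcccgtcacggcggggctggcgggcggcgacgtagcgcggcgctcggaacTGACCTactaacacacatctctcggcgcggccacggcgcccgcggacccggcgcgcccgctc

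Npas2 (NM_008719, mm9 chromosome 1, 39251117 to 39420085, plus strand) encodes a partner of BMAL1 that can stand in for CLOCK. It was nearly absent from Control LMs, at 0 to 1.38 RPKTM with a median of 0.328, and measured 15.4 to 40.3 in RevDKO, median 24.6. The groups did not overlap, and the difference was 4.36 at ZT4 and 4.06 at ZT10 (overall 4.21, SE 0.40, limma adjusted p 5.98e-05). Arntl (NM_001368412), which encodes BMAL1, ranged from 4.03 to 31.4 RPKTM in Control, median 10.1, and from 13.2 to 41.5 in RevDKO, median 34.9. Its difference of 1.36 (SE 0.39) did not pass over all genes (unadjusted p 0.00309, limma adjusted p 0.392), and the groups overlapped. At ZT4 Arntl averaged 18.3 ± 11.5 RPKTM in Control LMs against 32.1 ± 16.3 in RevDKO, and at ZT10 7.83 ± 3.33 against 31.4 ± 6.41 (SD, n = 3 each). Rora encodes a receptor that competes with REV-ERBs for the RORE. It gave 0.47 (SE 0.20, limma adjusted p 0.768), and Clock, the usual partner of BMAL1, gave 0.28 (SE 0.20, limma adjusted p 0.796). Of the 6 clock activators listed, 5 were tested and 1 passed, with a list median of 0.47 against -0.05 over all genes.

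Cry1 (NM_007771, mm9 chromosome 10, 84594445 to 84647799, minus strand) encodes a cryptochrome that represses CLOCK and BMAL1. It measured 1.55 to 10.6 RPKTM in Control LMs, median 3.77, and 9.03 to 50.6 in RevDKO, median 31.7. The highest Control library exceeded the lowest RevDKO library and the rest were apart, with a difference of 2.14 at ZT4 and 2.59 at ZT10 (overall 2.36, SE 0.41, limma adjusted p 0.0281). Its call was lost without any 1 of 6 libraries, with a pseudocount of 0.1 (adjusted p 0.0726), with no filter on low values (0.167) and with the libraries of lowest correlation left out, a setting chosen after seeing the data (adjusted p 0.0835). The paralog Cry2 gave 0.78 (SE 0.38, limma adjusted p 0.775), from 9.94 to 57.7 RPKTM in Control and 24.3 to 74.9 in RevDKO. The period genes, which encode the partners of the cryptochromes, stayed within the spread of the libraries, with differences of 0.38 for Per1 (SE 0.35), 0.02 for Per2 (SE 0.29) and 0.32 for Per3 (SE 0.39), all at limma adjusted p of 0.829 or above. The same held for Ciart (-0.08, SE 0.62), Bhlhe40 (-0.17, SE 0.33) and Bhlhe41 (0.44, SE 0.66), repressors of the same loop. Of 10 clock repressors tested, Cry1 alone passed, and the list median was 0.35.

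Nfil3 (NM_017373, mm9 chromosome 13, 53062578 to 53076408, minus strand) encodes a repressor of D-box genes that also acts in immune cells. It ranged from 2.14 to 40.2 RPKTM in Control LMs, median 14.9, and from 32.1 to 117 in RevDKO, median 73.8, with overlap between the groups (2.32, SE 0.45, limma adjusted p 0.0456). The difference was 1.25 at ZT4 and 3.38 at ZT10, and the call was lost in 10 of the 12 fits without 1 library. The activators of the same D-box, which NFIL3 opposes, gave 0.63 for Dbp (SE 0.45), 0.18 for Tef and 0.32 for Hlf, none past the threshold. Of 11 clock outputs and modifiers tested, 1 passed, with a median of 0.18.

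**Figure D3:**
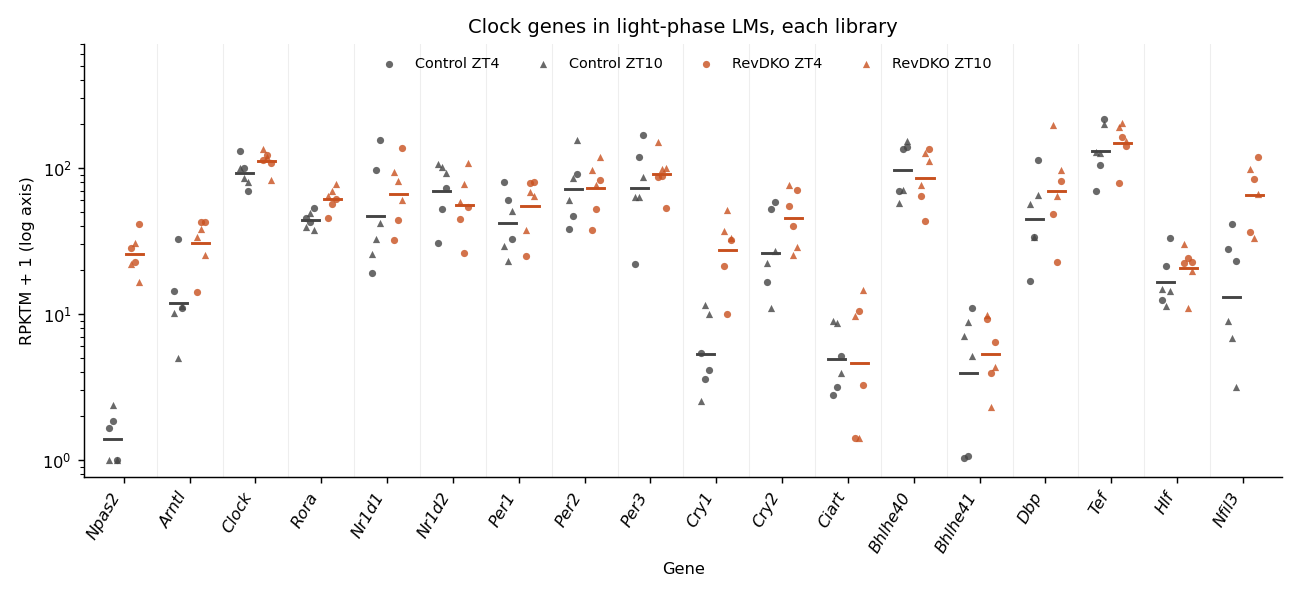
RPKTM + 1 (log axis) of 18 clock genes in each of the 12 light-phase LM libraries; points are libraries and bars the means of log2 values over the 6 libraries of a genotype. Npas2, Cry1 and Nfil3 are the genes past the threshold, and Per1, Per2, Per3, Dbp and Tef overlap over both times together. At ZT10 alone Per3 lay at 62.1 to 85.7 RPKTM in Control and 96.9 to 148 in RevDKO.

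Matrix genes moved in both directions. Loxl4 (NM_053083, mm9 chromosome 19, 42666769 to 42687296, minus strand), a lysyl oxidase that crosslinks collagen and elastin, measured 4.14 to 21.9 RPKTM in Control LMs, median 10.8, and 126 to 281 in RevDKO, median 164. The groups lay far apart, and the difference was 3.34 at ZT4 and 4.74 at ZT10 (overall 4.04, SE 0.34, limma adjusted p 3.45e-05). Col5a3 (NM_016919), a chain of type V collagen, measured 75.3 to 435 in Control, median 201, and 447 to 774 in RevDKO, median 546. Its groups were apart by a narrow margin, and the difference was 0.70 at ZT4 and 2.40 at ZT10 (overall 1.55, SE 0.29, limma adjusted p 0.0386). Col27a1 (NM_025685, mm9 chromosome 4, 62876446 to 62996024, plus strand), a fibrillar collagen, went the other way, from 257 to 740 RPKTM in Control, median 437, to 49.5 to 193 in RevDKO, median 126. No RevDKO library reached the lowest Control library (-2.01, SE 0.30, limma adjusted p 0.0089), and its adjusted p was 0.0912 with no filter on low values and 0.146 in the fit of all 36 LM libraries. Of the 16 tested members of the matrix list, 1 rose and 1 fell, with a median of 0.22. Col5a3 was not on that list.

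The next genes, grouped here by known role after the calls were seen, handle lipids and nutrients, and none of the fixed lipid lists described further on had a member past the threshold. Ppard (NM_011145, mm9 chromosome 17, 28369699 to 28438414, plus strand), which encodes the fatty acid receptor PPARδ, measured 6.76 to 24.5 RPKTM in Control LMs, median 8.65, and 59.99 to 113 in RevDKO, median 88.7. The groups were apart and both times agreed in sign, with 2.61 at ZT4 and 3.22 at ZT10 (overall 2.92, SE 0.26, limma adjusted p 4.39e-05). Chka (mm9 chromosome 19, 3851773 to 3894369, plus strand), whose kinase starts phosphatidylcholine synthesis from choline, rose from 8.14 to 42.0 RPKTM, median 19.7, to 62.5 to 167, median 86.0 (2.10, SE 0.30, limma adjusted p 0.00622). Apoa4, an apolipoprotein of triglyceride-rich particles, measured 96.3 to 148 in Control, median 134, and 213 to 652 in RevDKO, median 322 (1.38, SE 0.26, limma adjusted p 0.0386). Serpina12, the adipokine vaspin, measured 1.86 to 11.2 in Control and 17.9 to 26.8 in RevDKO (1.94, limma adjusted p 0.0386). Slc13a2, a sodium-coupled dicarboxylate transporter, was at 0 to 1.80 RPKTM in Control and 6.51 to 16.9 in RevDKO (2.72, limma adjusted p 0.0256), and its gene overlaps the opposite-strand transcript Slc13a2os by 8382 bases.

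Cyp2a5 (NM_007812, mm9 chromosome 7, 27620358 to 27628283, plus strand), a cytochrome P450 that oxidizes coumarin and nicotine, rose from 60.3 to 177 RPKTM, median 113, to 331 to 794, median 491 (2.13, SE 0.28, limma adjusted p 0.0027). Cyp2a5 has a close paralog, Cyp2a4, between which reads could be split. Cbs, the first enzyme of transsulfuration of homocysteine, measured 98.2 to 439.6 RPKTM in Control and 318 to 726 in RevDKO, with overlap (1.36, limma adjusted p 0.0456). Clpx, the unfoldase of a mitochondrial protease, measured 41.9 to 71.1 in Control and 80.2 to 198 in RevDKO with no overlap (1.31, limma adjusted p 0.0304).

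Genes of signalling, cell contact and the cell cycle also appeared among the rises. Chrna4 (NM_015730, mm9 chromosome 2, 180757016 to 180773882, minus strand), a subunit of nicotinic acetylcholine receptors, ranged from 2.99 to 21.4 RPKTM in Control LMs, median 6.26, and from 13.2 to 63.8 in RevDKO, median 42.4. The groups overlapped (2.18, SE 0.33, limma adjusted p 0.0089), and the adjusted p was 0.0592 with no filter on low values. Tjp3, the tight junction scaffold ZO-3, measured 8.07 to 23.5 in Control, median 18.3, and 33.9 to 127 in RevDKO, median 68.6, with no overlap (2.02, SE 0.34, limma adjusted p 0.0265). Cdkn1a, the cyclin-dependent kinase inhibitor p21, was low in both, at 0 to 4.51 in Control and 6.00 to 22.7 in RevDKO (2.05, SE 0.37, limma adjusted p 0.0370). Of the 14 cell cycle genes tested it was the 1 that passed, and the list median was -0.35.

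Noncoding and less studied transcripts made up the remaining rises. Hectd2, an E3 ubiquitin ligase gene, measured 11.3 to 17.6 RPKTM in Control LMs and 19.7 to 66.9 in RevDKO (1.62, limma adjusted p 0.0304), and its opposite-strand transcript Hectd2os 11.4 to 14.6 and 17.95 to 76.2 (1.76, limma adjusted p 0.0256). These transcripts overlap by 1718 bases, so their reads cannot be told apart there where counting ignored strand. The noncoding RNAs Gm31508, Urml and B230206H07Rik rose by 2.75, 1.93 and 1.82, and Pyroxd2, which lies 113 kb from Loxl4, by 1.46 (limma adjusted p from 0.0383 to 0.0386). The last 2 noncoding RNAs overlapped between the groups. Urml measured 6.80 to 57.6 RPKTM in Control and 30.7 to 131 in RevDKO. B230206H07Rik shares 3839 bases with the opposite-strand gene Eps8l2.

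The remaining falls were of genes whose products hepatocytes are known for. Ces1d (NM_053200, mm9 chromosome 8, 95689971 to 95721703, minus strand), a carboxylesterase that hydrolyses stored triglyceride, fell from 226 to 333 RPKTM, median 321, to 47.8 to 138, median 87.8 (-1.87, SE 0.23, limma adjusted p 0.00132). The groups did not overlap, and the gene belongs to a cluster of near-identical carboxylesterase genes, which makes its counting uncertain. Slc22a7, the organic anion transporter OAT2, fell from 12.04 to 33.9 RPKTM, median 27.5, to 0 to 9.03, median 2.94 (-2.99, SE 0.57, limma adjusted p 0.0424). Its call was lost in 10 of the 12 fits without 1 library. It was also lost with a pseudocount of 0.1 (limma adjusted p 0.395), with no filter on low values (0.258) and after centring on macrophage-enriched genes (0.0537). Fgl1, a secreted fibrinogen-like protein, ranged from 55.3 to 182 RPKTM in Control and from 14.8 to 66.2 in RevDKO, with overlap (-1.84, SE 0.35, limma adjusted p 0.045).

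The same 26 genes were read in the light-phase hepatocyte libraries, where the deletion was directed. There, 336 of 12583 genes passed (2.67%), 168 higher and 168 lower, or 198 and 207 in all when the Control hepatocyte library at ZT10 replicate 2 or 3 was omitted. All 26 LM genes had the same sign in hepatocytes and 24 of them passed there too, which is 92.3% of the LM genes and 24 of the 336 hepatocyte genes. Of those 336 genes, 305 were tested in LMs and 280 had the same sign there (91.8%). The share of all genes with equal sign in both cell types is not given here, so these counts have no background. Npas2 differed by 5.10 in hepatocytes (SE 0.47) and Loxl4 by 5.21 (SE 0.25), somewhat more than in LMs, and Ppard by 2.65 (SE 0.15), close to its 2.92 in LMs. The genes that did not pass in hepatocytes were Chrna4 (0.78, SE 0.43, limma adjusted p 0.441) and Tjp3 (0.64, SE 0.23, limma adjusted p 0.202). Whether the size of a difference differs between the cell types was not tested, because the tables were normalized apart.

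**Figure D4:**
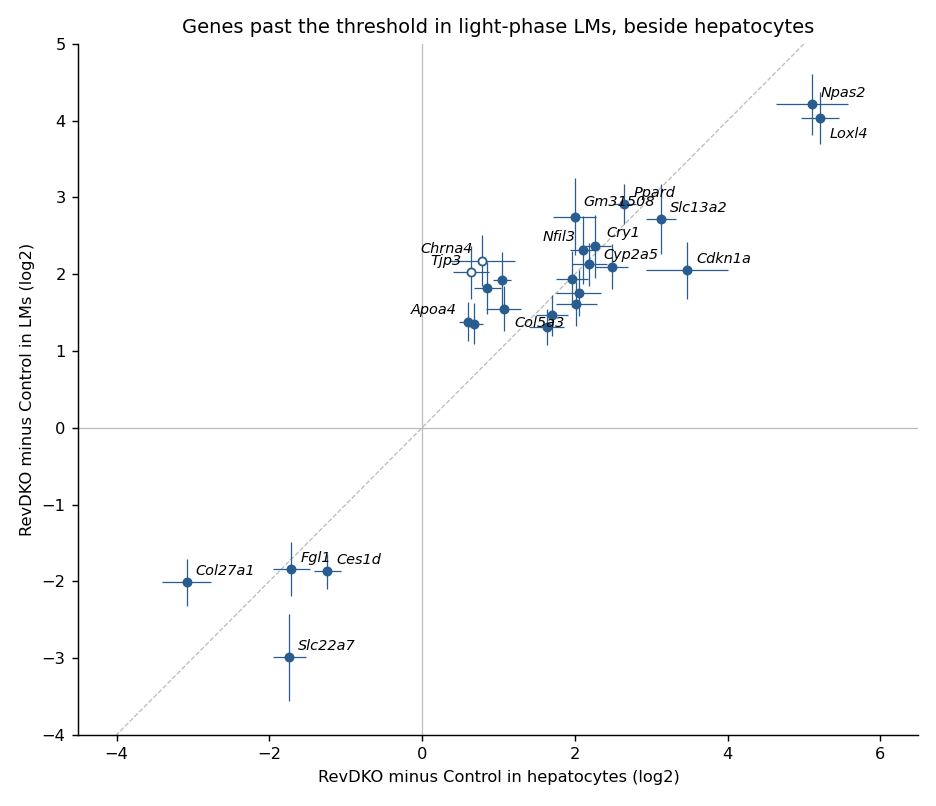
RevDKO minus Control (log2) of the 26 genes in light-phase LMs against the same difference in light-phase hepatocytes, with standard errors; the dashed line marks equal differences and open points the genes not past the threshold in hepatocytes. All 26 genes lie in the quadrants of equal sign, and Chrna4 (2.18 in LMs and 0.78 in hepatocytes) and Tjp3 are the open points.

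Levels set beside those in hepatocytes differed widely among the 26 genes. The rise or fall in RPKTM in LMs was 3.63% of that in hepatocytes for Hectd2os and 3.83% for Hectd2, and 281% for Col5a3, with a median of 27.2%. For comparison, the 20 hepatocyte markers stood in LMs at 7.31% to 21.2% of their hepatocyte level. The differences of 8 genes lay within that range, among them Cyp2a5 at 8.86%, Cry1 at 20.1%, Chka at 18.2% and Ces1d at 15.9%. Those of 2 lay below it and of 16 above it, including Loxl4 at 25.4%, Npas2 at 39.3% and Ppard at 93.3%. In 6 genes the difference in LMs exceeded that in hepatocytes, namely Chrna4, B230206H07Rik, Apoa4, Col27a1, Tjp3 and Col5a3. Control levels were higher in hepatocytes than in LMs for 24 of the 26, the exceptions being Col5a3 (236 RPKTM in LMs and 99.2 in hepatocytes) and Col27a1. The share of all genes with a higher level in hepatocytes is not given here. How much hepatocyte RNA took part in each difference was not tested.

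Classes were also drawn from dark-phase Control libraries, which are not in the light-phase test, at a ratio of 8 between the tables. Hepatocyte-enriched genes were 407 of those tested (3.31%) and gave 8 of the 26 calls (30.8%), namely Npas2, Gm31508, Cyp2a5, Chka, Urml, Hectd2os, Hectd2 and Clpx. Their median difference was 0.15. Macrophage-enriched genes were 45, of which 0 passed in limma and 2 had an unadjusted p under 0.05, and their median was -0.24. With the mean level of the 20 hepatocyte markers as a covariate 41 genes passed, all 26 among them. The summed markers did not differ by genotype beyond the spread (0.07, exact permutation p = 0.745). This fit therefore cannot show how much hepatocyte RNA took part in a difference.

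No gene of the macrophage lists passed the threshold, and most members were lower in RevDKO. None of the 18 Kupffer cell markers passed in limma, 15 were lower, 3 of them at an unadjusted p under 0.05, and the list median was -0.29. The lowest p-values were those of the potassium channel gene Kcna2 at 121 to 331 RPKTM in Control and 30.5 to 237 in RevDKO (-1.01, limma adjusted p 0.729), and of Il18bp, the decoy receptor of interleukin 18 (-0.72, limma adjusted p 0.772), and the folate receptor gene Folr2 (-0.73, limma adjusted p 0.774). Of the 16 immediate early genes tested, 5 were lower at an unadjusted p under 0.05 and 0 passed, and the list median of -0.55 was the lowest of all lists. Atf3, a stress-induced repressor, measured 9.53 to 24.3 RPKTM in Control and 4.11 to 11.8 in RevDKO (-0.92, limma adjusted p 0.666), and Nr4a1, an orphan receptor induced by stimulation, 7.41 to 30.9 and 0 to 15.8 (-1.46, limma adjusted p 0.729). Of the 16 general macrophage markers 14 were lower, and of the 22 lysosomal genes 18. The share of all genes lower over both times is not given here. At ZT4 1 of the 16 and 7 of the 22 were lower, against 51.2% of all genes. At ZT10 14 and 18 were, against 53.5%. Over all genes the median was -0.05, and 2.85% were lower at an unadjusted p under 0.05. Members of a list can move together, so these counts are not independent.

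The lower values of macrophage genes lay at ZT10, where the Kupffer cell sum was also lower. Cd5l, a Kupffer cell scavenger protein that inhibits apoptosis, averaged 4010 ± 1271 RPKTM in Control and 5411 ± 2331 in RevDKO at ZT4, and 6484 ± 2060 and 2060 ± 1953 at ZT10 (SD, n = 3 each). Trem2, a lipid-sensing receptor of lipid-associated macrophages, averaged 17.2 ± 8.29 in Control and 21.8 ± 13.6 in RevDKO at ZT4. At ZT10 it averaged 23.2 ± 5.45 and 4.27 ± 1.93. The lysosomal protease gene Ctss averaged 1154 ± 255 and 1391 ± 507 at ZT4, and 1855 ± 437 and 620.3 ± 560.1 at ZT10. The lysosomal membrane gene Lamp1 averaged 745 ± 213 and 773 ± 189 at ZT4, and 1321 ± 374 and 585 ± 299 at ZT10. When 1 library was omitted, the difference over both times ranged from -1.21 to -0.34 for Cd5l, -1.30 to -0.36 for Ctss and -0.81 to -0.31 for Lamp1. Each was smallest without RevDKO ZT10 replicate 2, the library of lowest median correlation. Over both times none of these 4 genes passed (limma adjusted p 0.775). The median over the general macrophage markers was 0.38 at ZT4 and -0.84 at ZT10, that over the lysosomal genes 0.18 and -0.66, and that over the MHC class II genes 0.21 and -0.72, against -0.01 and -0.06 over all genes. For the immediate early genes it was -0.50 and -0.88.

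Among the remaining marker lists, 0 of 20 hepatocyte genes passed (median 0.10), 0 of 16 general macrophage genes (-0.19), 0 of 14 endothelial genes (0.14), 0 of 15 stellate cell genes (0.08) and 0 of 9 lymphocyte, neutrophil and biliary genes (-0.27). The last list held the biliary transcription factor gene Sox9 at 2.03 to 10.9 RPKTM in Control and 6.32 to 35.3 in RevDKO (1.72, SE 0.43, limma adjusted p 0.274), and the neutrophil gene S100a8 at 4.46 to 26.8 and 1.44 to 9.10 (-1.28, SE 0.46, limma adjusted p 0.662). In that list 5 of the 9 genes were lower.

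No gene passed among 15 cytokines, chemokines and feedback genes of NF-kB tested (median -0.22), 11 genes of MHC class II presentation (-0.24), 23 phagocytosis receptors (-0.21), 22 lysosomal genes (-0.18), 22 interferon-stimulated genes (-0.19), 18 glycolysis genes (-0.17) or 14 heat shock and cold-inducible genes (0.14). In these 7 lists 0 genes were higher and 3 were lower at an unadjusted p under 0.05, against 3.47% and 2.85% of all genes. The 3 were the scavenger receptor gene Msr1 and the interferon-induced genes Cmpk2 and Oas3. The recruited and lipid-associated list held 14 tested genes, none past the threshold and a median of -0.47, with Plac8 at -0.78 and the fractalkine receptor gene Cx3cr1 at -1.21 (limma adjusted p 0.708 and 0.775), and the fatty acid binding protein gene Fabp5 at 0.93 (limma adjusted p 0.754). Of the genes the study itself singled out on these samples, 9 were tested and 0 passed. At an unadjusted p under 0.05, 1 of them was lower. A list chosen on these samples is not independent evidence. The study drew on rhythms over the day and took several of these genes as ligands made by hepatocytes. A mean level in light-phase LMs is a different measure, so these values do not test that choice. The lower gene was Bmpr1a, a BMP receptor, at 27.9 to 51.7 RPKTM in Control and 12.5 to 26.5 in RevDKO with no overlap (-0.91, SE 0.26, limma adjusted p 0.385).

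Lipid metabolism lists held members near the threshold in both directions. Of 22 genes of fatty acid and triglyceride synthesis 0 passed, with a median of -0.06. The phosphatidate phosphatase gene Lpin1 came nearest, at 65.9 to 172 RPKTM in Control, median 100.03, and 80.7 to 432 in RevDKO, median 321 (1.37, SE 0.27, limma adjusted p 0.0511). Omitting RevDKO ZT10 replicate 1 brought its adjusted p to 0.000566, and other single omissions raised it to as much as 0.184. The elongase genes Elovl3 and Elovl6 went apart, at 1.77 (SE 0.43, limma adjusted p 0.231) and -1.43 (SE 0.40, limma adjusted p 0.381), and Elovl3 passed when the RevDKO library at ZT4 replicate 1 was omitted (0.0276) and reached 0.573 under another omission. Perilipins coat lipid droplets, and Plin5 and Plin4 gave 1.17 and 1.40 (limma adjusted p 0.389 and 0.435). Among 22 genes of fatty acid oxidation and ketogenesis the median was -0.33 and 0 passed, with the omega-hydroxylase gene Cyp4a14 at 12.2 to 251 RPKTM in Control and 3.31 to 34.8 in RevDKO (-2.64, SE 0.68, limma adjusted p 0.276) and the peroxisomal thiolase gene Acaa1b at -1.18 (limma adjusted p 0.285). Cyp4a14 passed without the Control library at ZT10 replicate 1 (adjusted p 0.0304) and reached 0.673 under another omission.

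The 17 genes of lipid droplets and lipid uptake held 0 past the threshold, with a median of 0.08, and the 5 tested genes of the vitamin D receptor pathway 0, with a median of 0.01. Genes of the SREBP pathway, which activates sterol and fatty acid synthesis, did not pass the threshold over both times together. Of 7 tested in the machinery list 0 passed, and Insig2, whose product holds the SCAP and SREBP complex in the endoplasmic reticulum, was highest at 1.27 (SE 0.38, limma adjusted p 0.436), from 15.1 to 78.3 RPKTM in Control and 42.0 to 119 in RevDKO. Scap, which no virus targeted in these groups, gave 0.30 (SE 0.25, limma adjusted p 0.817), and Srebf1 -0.22 (SE 0.22, limma adjusted p 0.853). Of 22 cholesterol synthesis and uptake genes 0 passed, with a median of 0.15, and of 13 genes of LXR and sterol efflux 0 passed, with a median of -0.12. Of the 22 cholesterol genes, 18 were lower at ZT4 (median -0.28) and 5 at ZT10 (median 0.53). Over all genes 51.2% and 53.5% were lower, with medians of -0.01 and -0.06. This change between the times was not tested for the list.

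The list of hepatocyte detoxification and pheromone carrier genes held 19 tested genes, of which Cyp2a5 rose and Slc22a7 fell, with a median of 0.09. At an unadjusted p under 0.05, 5 were higher and 5 lower, against 3.47% and 2.85% of all genes. The steroid hydroxylase gene Cyp17a1 measured 0 to 23.5 RPKTM in Control and 14.9 to 132 in RevDKO (2.80, SE 0.57, limma adjusted p 0.0637), and passed without the Control library at ZT4 replicate 1 (0.0308) or the RevDKO library at ZT4 replicate 1 (0.0496), with 0.226 as the highest value over single omissions. Cyp3a11, the main drug-oxidizing cytochrome P450 of mouse liver, measured 18.4 to 67.8 and 0 to 21.5 (-2.20, limma adjusted p 0.359). Mup17, a pheromone carrier with near-identical paralogs, was listed at 0 in all 6 RevDKO libraries and at 0 to 17.7 RPKTM in Control (limma adjusted p 0.415).

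**Figure D5:**
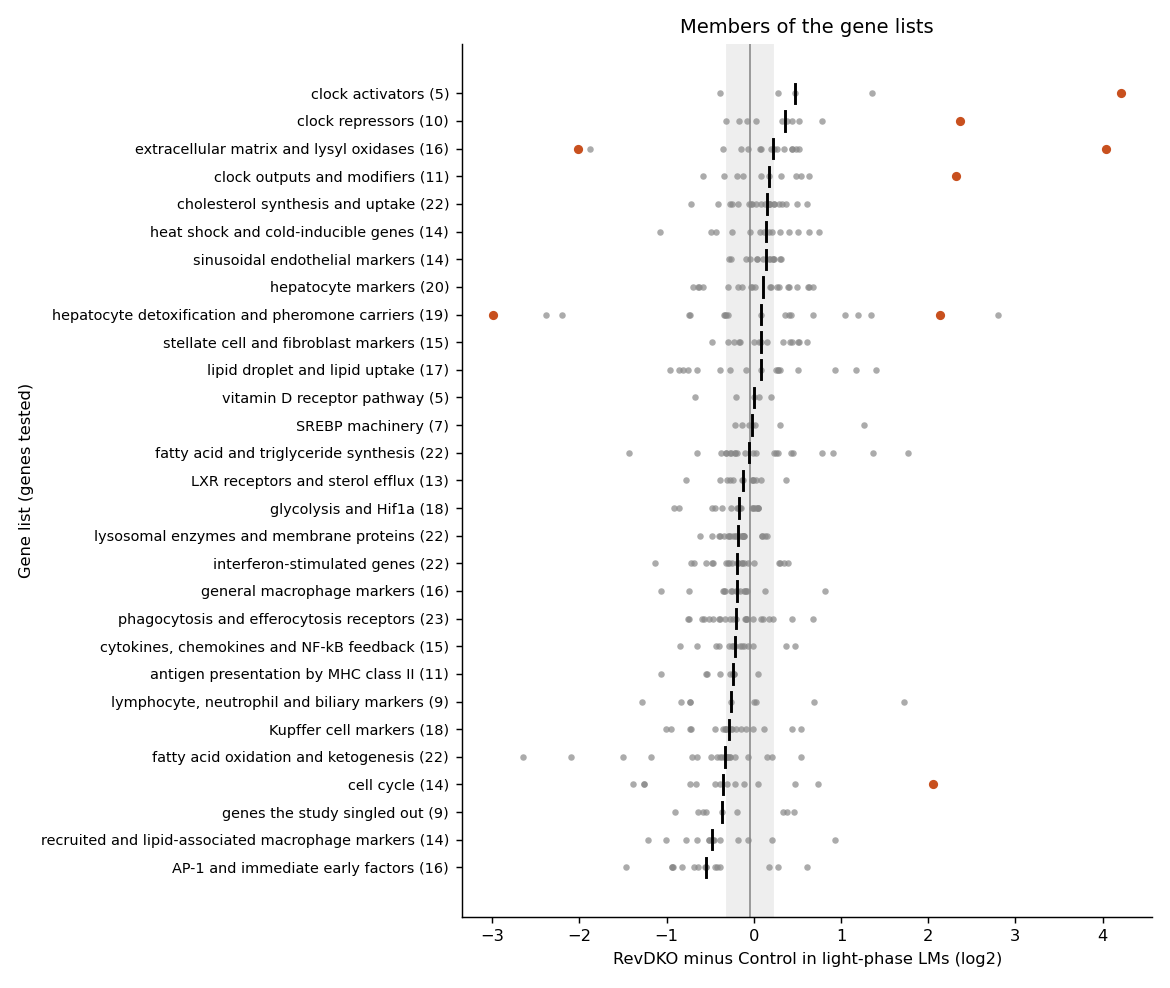
RevDKO minus Control (log2) in light-phase LMs for each tested member of 29 gene lists, ordered by the list median (black bar); orange points passed the threshold, the grey line is the median of all 12298 genes at -0.05 and the grey band their quartiles, -0.30 to 0.22. Points past the threshold stand in the 3 clock lists and the matrix, detoxification and cell cycle lists, and the immediate early list has the lowest median at -0.55.

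Whether the difference between genotypes changed within the light phase was tested as an interaction of genotype and time. In limma 0 of 12298 genes passed, and 976 had an unadjusted p under 0.05. The smallest p was that of Avpr1a, the vasopressin receptor of hepatocytes, whose difference was -0.16 at ZT4 and 3.27 at ZT10 (interaction 3.43, SE 0.59, limma adjusted p 0.364). Simc1 (2.30), Col5a3 (1.70), Snrnp40 (-2.64) and Gm4952 (3.02) followed, each at a limma adjusted p of 0.6253.

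Light and dark phases were compared in 24 LM libraries, since a difference seen in the light phase need not be particular to it. For the light minus dark difference 0 of 13674 genes passed in limma, and 462 had an unadjusted p under 0.05. On the log2 scale all 26 light-phase genes had the same sign over ZT16 and ZT22, where 3 of 12907 genes passed (0.0232%), 2 of them among the 26. The share of all genes with the same sign in both phases is not given here, so the count of signs has no background. Npas2 averaged 2.38 RPKTM in Control and 18.3 in RevDKO LMs in the dark phase, and Loxl4 33.3 and 191. Cry1 stood at 29.1 and 36.3 there, a difference of 0.34, and Cdkn1a and Gm31508 gave 0.17 and 0.30. The sign of Gm31508 depends on the scale, since its mean there was 3.45 RPKTM in Control and 3.24 in RevDKO. The smallest p-values for light minus dark were those of the elongase gene Elovl6 (-3.49) and of Rgs16, a brake on G protein signalling (-4.27), both at limma adjusted p 0.9999. Omitting Control ZT22 replicate 3 brought the count to 3, with Elovl6 and Rgs16 at 0.0335, and omitting RevDKO ZT16 replicate 3 brought it to 1.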

How the data were processed

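Total RNA depleted of ribosomal RNA was sequenced as stranded libraries. RPKM values, scaled to 10000000 reads (RPKTM) and quantile normalized within each table, were deposited by the authors, and every library of a table therefore holds the same set of values. The submitters' processing notes name STAR, HOMER and mm9; versions, and whether counting used strand, are not given in the sources used here. Start coordinates in the table equalled annotated starts counted from 1 in 49.8% of transcripts and from 0 in 5.12%, so they are given as 1-based.

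Of 42322 transcripts, the one with the highest mean stood for each of 25095 symbols. Genes with at least 3 libraries over 5 RPKTM were tested on log2(RPKTM + 1) with limma 3.58.1 (R 4.3.3), genotype plus time, with Benjamini-Hochberg adjustment and a threshold of 0.05. The interaction of genotype and time, the light minus dark difference (24 libraries), the dark phase and the hepatocyte table were fitted likewise. Marker sums were compared by exact permutation within time. Figures were drawn with matplotlib 3.10.9. The steps were tested on simulated data.

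Named genes were the targeted genes, up to 15 rises and 15 falls past the threshold with 1 sign at both times, list members past it, the clock genes (1 is not reported here), up to 4 members with the smallest p of each list in which none passed, and the 5 genes with the smallest p of each interaction. The list of detoxification genes gave further examples with small p. Hectd2os, Hectd2, Pyroxd2, Apoa4, Cbs and Clpx lie outside the rule and were named after their values were seen, to complete the 26. The comparison and all gene lists were chosen with earlier results of these data known. Alternatives changed the pseudocount, filter, transcript choice, weights, covariates, centring, libraries and replicate block. RevScapTKO libraries entered the 36-library alternative only, and ScapKO libraries were not used.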

Additional observations from a re-analysis of the deposited data

Results flagged for a closer look

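The noncoding RNA Gm31508 measured 42.56 RPKTM in the RevDKO LM library at ZT4 replicate 3, and the nearest of the other 5 RevDKO light-phase libraries measured 16.7. The gap took 0.752 of the range of the 6 libraries, above the critical value of Dixon's test. It was the 1 sample to stand out so far among 66 groups of 6 libraries tested, where chance marks about 1 group in 20.

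The RevDKO minus Control difference of the summed Kupffer cell markers changed by -1.36 log2 units from ZT4 (0.37) to ZT10 (-0.99). The exact permutation test of genotype within time gave p = 0.04 for this change, the 1 list of 7 under 0.05, and the p adjusted over the lists was 0.28. At ZT10 3 of 3 RevDKO libraries lay below 3 of 3 Control libraries. Its part in other results was not tested.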

How the results depend on the processing

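The depth of the libraries is unknown, so no limit from counting can be given. Against 26 genes as reported, 12 passed with a pseudocount of 0.1, 6 with no filter on low values (20792 genes tested), 41 with the hepatocyte marker covariate, 97 with library quality weights and 15 after centring on the macrophage-enriched genes, which moved the median of all genes by 0.18. The other planned settings gave 19 to 34. Of the 26 genes, 15 kept the call in the fit of all 36 LM libraries and 11 lost it, among them Apoa4 (limma adjusted p 0.872) and B230206H07Rik (0.782). After centring 14 kept it and 12 lost it. Chosen after seeing the data, omission of both libraries of lowest correlation gave 21 and a macrophage marker covariate 35. The cause of these changes was not tested. Omitting 1 library gave 8 to 28 genes in LMs, 0 for the interaction, 0 to 3 for light minus dark and 198 to 381 in hepatocytes, where no filter gave 218. With the replicate block 19 genes passed, 18 of them among the 26. Whether the replicate numbers pair the libraries is unclear. Over 0.1 correlated 2 of 6 pairs (range -0.06 to 0.28), and 7 of 12 libraries correlated best with their own number. The interaction and the light minus dark difference gave 0 genes in every planned setting other than the omissions.

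Some genes near no difference changed sign. Ciart gave 0.0737 with a pseudocount of 5, 0.37 with quality weights, 0.0945 after centring and 0.77 without both libraries of lowest correlation. Per2 gave -0.0236 with the hepatocyte and -0.0849 with the macrophage covariate, Nr1d2 0.00433 with weights, and Bhlhe40 0.20 with weights and 0.00655 after centring. Over omissions of 1 library, Per2 ranged from -0.12 to 0.19, Per3 from -0.0335 to 0.62, Ciart from -0.43 to 0.38 and Bhlhe40 from -0.35 to 0.0406. Marker sums ranged from -0.0377 to 0.20 for hepatocytes, -0.35 to 0.00780 for macrophages, -0.44 to -0.21 for recruited macrophages, -0.0313 to 0.25 for endothelium and -0.16 to 0.00963 for lymphocytes, neutrophils and biliary cells. Averaging log2 values gave -0.30 for recruited macrophages (exact permutation p = 0.04). At ZT4 alone, a setting added after seeing the data, 4 sums changed sign: hepatocyte -0.13, Kupffer cell 0.37, general macrophage 0.37 and endothelial -0.0938.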

Other observations

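Lpl, which encodes the lipoprotein lipase that frees fatty acids from triglyceride-rich particles, was chosen after its values were seen. In light-phase hepatocytes it averaged 22.7 RPKTM in Control and 305 in RevDKO (3.81, SE 0.27, limma adjusted p 1.89e-06). In LMs of the same phase it ranged from 252 to 576 RPKTM in Control, median 374, and from 59.8 to 592 in RevDKO, median 230.3 (-0.65, SE 0.40, limma adjusted p 0.775). The LM difference was 0.28 at ZT4 and -1.59 at ZT10, and its interaction with time did not pass (limma adjusted p 0.6253).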
